A study of Homo sapiens with 18 samples.

Results

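The comparison described here sets AP-2γ overexpression against AP-2α overexpression in bladder cancer cells without added WWOX, the KC against the KA variant, in the cell lines RT-112 and HT-1376. It uses 4 of the 18 CAGE-seq libraries of the series, 1 KA and 1 KC library in each line, with the change taken within each line. CAGE-seq reads the capped 5′ ends of transcripts, and the values are CPM, reads scaled to a fixed library total and summed per gene. Of the 16575 genes in the table, 11177 reached 5 CPM in at least 1 of the 4 libraries and were tested. Both variants had received a blank lentivirus in the first transduction. The second transduction carried the pLKO-Neo-CMV system with AP-2α in KA and AP-2γ in KC, so that the CMV promoter drove either factor, and cells were selected with G418. RT-112 grew in RPMI-1640 and HT-1376 in high-glucose DMEM, so that line and medium cannot be told apart. The double control KK received blanks both times, and WA and WC are labelled as carrying WWOX, a tumour suppressor, together with AP-2α or AP-2γ. CAL-29, the third line, was left out because its library labelled KC had the profile of HT-1376: its median correlation across genes was 0.929 with HT-1376 libraries and 0.741 with the other CAL-29 libraries.

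AP-2α (TFAP2A) and AP-2γ (TFAP2C) are closely related transcription factors that bind as dimers to the same GC-rich palindrome. Both act in epidermis, placenta and breast epithelium and regulate genes of receptors, keratins and growth control. WWOX binds AP-2 proteins through its WW domain, and the study asked how WWOX changes what each factor does. KC against KA asks how the factors differ from each other where WWOX is not added.

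The KA and KC libraries of these lines held between 13357102 and 17958572 reads on genes, recovered from the CPM steps, and 3 reads were worth 0.158 to 0.213 CPM. The epithelial markers EPCAM, CDH1, KRT8 and KRT18 were all above 5 CPM in the 4 libraries, with a summed level of 2080 to 6090 CPM. Of the urothelial markers, 8 of 10 reached 5 CPM in both RT-112 libraries, 6 in HT-1376 KA and 4 in HT-1376 KC, and UPK1A and KRT20, genes of the umbrella cell, were listed at 0 in both HT-1376 libraries. No endothelial marker was in the table, CD14 was the one leukocyte marker in it, at 0.21 CPM or less, and the 4 fibroblast markers in the table summed to 12.6 to 18.6 CPM. In these bulk libraries fewer cells of a type and less RNA per cell cannot be told apart.

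The genes that differed most in the same direction in both lines included IFI27, MT2A and MUC1. IFI27 is induced by interferon, MT2A is a metallothionein that binds zinc and copper, and MUC1 is a membrane mucin. IFI6, also induced by interferon, was higher in KC in both lines, but mainly in RT-112. The promoter sequences of these genes are printed here because the letters of a known motif stand in them, 250 bases before to 50 after the start in RefSeq on GRCh38.p14. The IFI27 promoter, chr14:94110486-94110785 on the plus strand, held 2 matches to GAAANN followed by GAAA, the core repeat of the interferon-stimulated response element. The IFI6 promoter, chr1:27672143-27672442 on the minus strand, held 3. The MT2A promoter, chr16:56608334-56608633 on the plus strand, held 8 matches to TGCACNC or TGCGCNC, the core of the metal response element. The MUC1 promoter, chr1:155192866-155193165 on the minus strand, held 1 match to GCCNNNGGC, the AP-2 palindrome. Capitals mark the matches on either strand, which may overlap, and each sequence reads 5′ to 3′ on the strand of its gene.
IFI27: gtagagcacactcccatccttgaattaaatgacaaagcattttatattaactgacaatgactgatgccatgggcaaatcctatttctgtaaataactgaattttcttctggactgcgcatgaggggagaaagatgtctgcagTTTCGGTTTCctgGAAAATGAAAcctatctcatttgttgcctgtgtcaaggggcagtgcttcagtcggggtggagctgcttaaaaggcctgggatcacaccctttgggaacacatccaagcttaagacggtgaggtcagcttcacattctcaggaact
IFI6: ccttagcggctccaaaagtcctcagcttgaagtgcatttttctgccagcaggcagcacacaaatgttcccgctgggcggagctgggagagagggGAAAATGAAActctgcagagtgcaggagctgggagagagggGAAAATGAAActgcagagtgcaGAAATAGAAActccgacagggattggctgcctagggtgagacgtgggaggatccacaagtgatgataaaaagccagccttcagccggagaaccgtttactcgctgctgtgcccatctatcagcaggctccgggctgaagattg
MT2A: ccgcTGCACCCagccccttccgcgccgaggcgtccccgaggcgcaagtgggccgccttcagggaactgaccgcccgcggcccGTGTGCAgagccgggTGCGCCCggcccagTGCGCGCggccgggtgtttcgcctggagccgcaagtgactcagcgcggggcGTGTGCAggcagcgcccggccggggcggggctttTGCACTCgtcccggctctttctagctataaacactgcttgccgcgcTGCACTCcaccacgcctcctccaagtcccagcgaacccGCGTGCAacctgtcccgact
MUC1: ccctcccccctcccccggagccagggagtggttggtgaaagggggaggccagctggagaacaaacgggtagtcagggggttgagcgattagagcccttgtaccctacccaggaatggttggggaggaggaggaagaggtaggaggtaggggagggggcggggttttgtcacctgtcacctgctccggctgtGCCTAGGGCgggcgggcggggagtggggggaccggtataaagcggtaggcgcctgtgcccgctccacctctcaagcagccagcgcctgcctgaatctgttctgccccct

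Over the first listed promoter of each of 27305 RefSeq genes, the AP-2 palindrome stood in 23.0%, the interferon motif in 3.65% and the metal motif in 29.3%. Among the tested genes with a promoter in the table, 8722 of 11177, the shares were 33.1%, 2.67% and 39.7%. A match is a description of the letters and not a site of binding.

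The labels were first checked on the targeted genes. TFAP2C (chromosome 20, 56629306 to 56639283 on hg38) stood at 49.4 CPM in RT-112 KA and 264 CPM in RT-112 KC, and at 172 CPM in HT-1376 KA and 214 CPM in HT-1376 KC. KC was the higher library in both lines, by 5.34-fold in RT-112 and 1.25-fold in HT-1376. The double control stood at 58.0 CPM in RT-112 and 158 CPM in HT-1376, nearer to KA than to KC in each line. On the log2(CPM + 0.5) scale the mean change was 1.36 ± 0.56 (SE of the limma fit), with an unadjusted p of 0.036 and an adjusted p of 0.9997.

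TFAP2A (chromosome 6, 10393186 to 10419659) was at 46.8 CPM in RT-112 KA and 19.0 CPM in RT-112 KC, and at 101 CPM in HT-1376 KA and 56.0 CPM in HT-1376 KC. KA was the higher library in both lines, and KC lay at 0.406 and 0.556 of it. The double control was at 18 CPM and 69.0 CPM, so that KA stood above it by 2.60-fold in RT-112 and 1.46-fold in HT-1376. The mean change from KA to KC was -1.06 ± 0.25 (SE), with an unadjusted p of 0.0021 and an adjusted p of 0.9997 in the limma fit. Both factors thus stood on the side that the labels give them, with TFAP2C in HT-1376 separated least. A transcript started at the CMV promoter begins in the vector, and how much of an introduced copy these values count was not tested.

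In the libraries labelled WA and WC the same genes were not ordered alike. TFAP2C was at 180 CPM in RT-112 WA and 143 CPM in RT-112 WC, against 98.0 CPM in HT-1376 WA and 163 CPM in HT-1376 WC. TFAP2A was at 25.3 CPM in RT-112 WA and 21.2 CPM in RT-112 WC, and at 69.9 CPM and 72.9 CPM in HT-1376 WA and WC. The WWOX gene itself was between 16.9 CPM and 25.9 CPM in the KA and KC libraries, with a mean change of -0.20 ± 0.26 (SE) and an unadjusted p of 0.47. It was at 18.9 CPM in RT-112 WA and 18.4 CPM in RT-112 WC, against 26.0 CPM in the control, and at 19.2 CPM in HT-1376 WA and 23.1 CPM in HT-1376 WC, against 22.4 CPM. In these lines the WA and WC libraries were thus below the control, apart from HT-1376 WC, so that the CAGE level did not show the labelled gain of WWOX. The study blotted for the WWOX protein, and for the AP-2 proteins too, to check the transduction. How much of an introduced WWOX copy the CAGE values count was not tested. Wherever WA and WC are used below they are the libraries labelled so. TFAP2E was at 0.06 CPM or less in the 4 libraries.

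**Figure D1:**
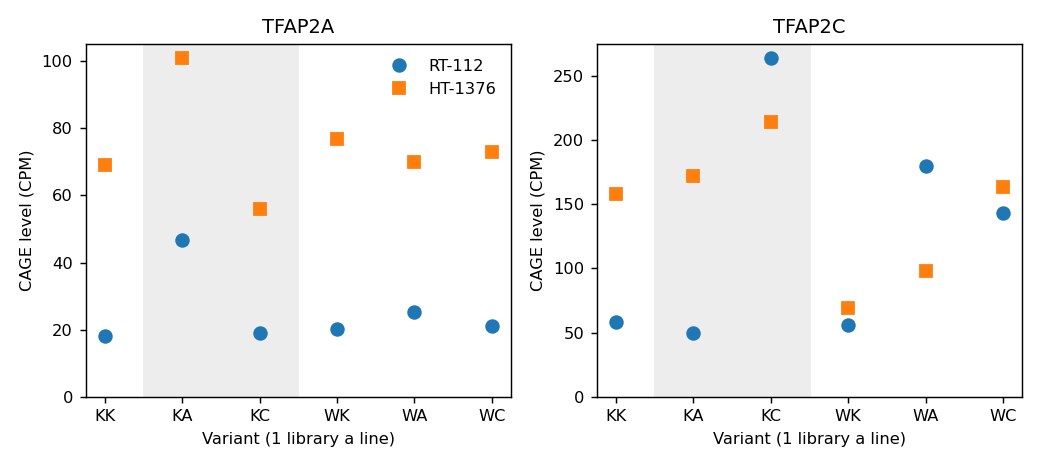
CAGE level in CPM (y axis, linear from 0) of TFAP2A and TFAP2C in the 6 variants (x axis) of RT-112 (circles) and HT-1376 (squares), 1 library a point, with KA and KC shaded. TFAP2A is highest in KA in either line, and TFAP2C stands at 49.4 CPM in KA and 264 CPM in KC of RT-112, against 172 CPM and 214 CPM in HT-1376.

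No gene passed an adjusted p of 0.05 between KC and KA in the limma fit, which is 0.0% of the 11177 tested, and the smallest adjusted p was 0.9997. An unadjusted p below 0.05 was reached by 118 genes, 1.06% of those tested, of which 48 (0.429%) were higher and 70 (0.626%) lower in KC. The edgeR and DESeq2 fits on recovered reads also called 0 genes, with 176 and 153 at an unadjusted p under 0.05. The fit used all 12 libraries of the lines with the line as a block. A fit on the 4 KA and KC libraries alone called 12 genes, but it rests on 1 residual degree of freedom. All single genes below are therefore described by their values in each library, and none is called changed.

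The changes in RT-112 and HT-1376 were not related across the 11177 genes, with a Pearson r of -0.02, given as a description over genes that share their libraries. The spread was larger in HT-1376, with an SD of 0.59 against 0.33 in RT-112, and 8.99% of genes were beyond 1 on the log2 scale in HT-1376 against 1.20% in RT-112. The median gene changed by 0.10 in RT-112 and by -0.20 in HT-1376 as deposited, and by -0.01 and 0.00 after TMM scaling. For that reason 65.4% of genes were higher in KC in RT-112 and 34.5% in HT-1376, the backgrounds against which the counts in single lines below are read.

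**Figure D2:**
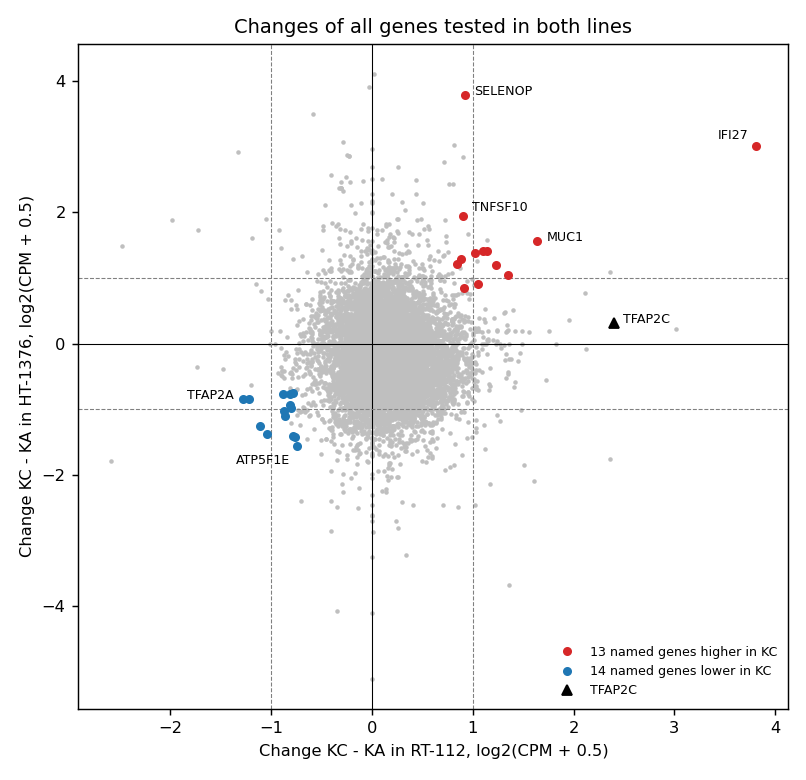
Change from KA to KC in log2(CPM + 0.5) in RT-112 (x axis) against HT-1376 (y axis), 1 grey point a gene, with 13 named genes that are higher in KC in both lines in red, those lower in blue, TFAP2C as a triangle and dashed lines at 1. The cloud has no slope (r = -0.02), and IFI27 at 3.81 and 3.01 lies apart from the other genes that are higher in both lines.

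Beyond 1 on the log2 scale in both lines, 11 genes were higher in KC, 0.0984% of those tested, and 3 were lower, 0.0268%. Another 20 genes, 0.179%, were beyond 1 in opposite directions. The 11 included IFI27, MUC1, MT2A, BLVRA, DEPP1, SQOR, SERPINB2, IFIT5, IGFBP5 and AZGP1, and the 3 were GTF2H2, ERVMER34-1 and CRCT1. AZGP1 and GTF2H2 were named after their values were seen, because they reached 5 CPM in only 1 of the 4 libraries. Of the 11, 5 (DEPP1, SERPINB2, IFIT5, IGFBP5 and AZGP1) reached 5 CPM only in KC, the group where they are high, so that the filter itself favoured their direction. GTF2H2 lies in a segmental duplication with near-identical copies, and its reads are uncertain.

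IFI27 (chromosome 14, 94104836 to 94116695), a mitochondrial protein strongly induced by interferon α, had the largest smaller-line change of the 14 named genes higher in KC, 3.01. It was at 0.84 CPM in RT-112 KA and 18.3 CPM in RT-112 KC, which are 16 and 342 reads, and at 11.4 CPM in HT-1376 KA and 95.7 CPM in HT-1376 KC. The ratios of KC to KA were 21.8 in RT-112 and 8.39 in HT-1376. The control KK, at 6.48 CPM and 13 CPM, lay between KA and KC in both lines. The mean change was 3.41 ± 1.40 (SE), with an unadjusted p of 0.037.

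MUC1 (chromosome 1, 155185824 to 155192916), the mucin of glandular and urothelial surfaces, was at 2.21 CPM in RT-112 KA and 7.96 CPM in RT-112 KC, and at 23.1 CPM and 69.6 CPM in HT-1376. KC was 3.6-fold and 3.02-fold above KA. The control was at 0.72 CPM in RT-112, below both, and at 32.5 CPM in HT-1376, between them.

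MT2A (chromosome 16, 56608584 to 56609497) was at 313 CPM in RT-112 KA and 733 CPM in RT-112 KC, and at 3544 CPM in HT-1376 KA and 8130 CPM in HT-1376 KC. The ratios were 2.34 and 2.29, and the control lay below both factors, at 107 CPM and 2243 CPM. Its mean change was 1.21 ± 0.47 (SE), with an unadjusted p of 0.029. Metallothionein genes are near-identical copies, and reads may be split among them.

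BLVRA, which reduces biliverdin to bilirubin, was at 3.53 CPM and 8.39 CPM in KA and KC of RT-112 and at 11.8 CPM and 32.1 CPM in HT-1376. SQOR, the mitochondrial sulfide oxidase, was at 4.63 CPM and 12.6 CPM in RT-112 and at 24.2 CPM and 50.3 CPM in HT-1376. In both genes and both lines the control was nearer to KA than to KC, at 3.77 CPM and 13.4 CPM for BLVRA and 4.38 CPM and 17.6 CPM for SQOR. SELENOP, the selenium carrier of plasma, differed by line, at 5.26 CPM and 10.4 CPM in RT-112 but 29.9 CPM and 416 CPM in HT-1376, a ratio of 14. SELENOM, a selenoprotein of the endoplasmic reticulum, was at 1.89 CPM and 3.79 CPM in RT-112 and at 53.5 CPM and 125 CPM in HT-1376.

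TNFSF10, the death ligand TRAIL, was at 8.52 CPM in RT-112 KA and 16.4 CPM in RT-112 KC, and at 16.8 CPM and 65.9 CPM in HT-1376. OAS1, which makes the oligoadenylate that activates RNase L, was at 57.4 CPM and 119 CPM in RT-112 and at 19.8 CPM and 37.4 CPM in HT-1376. For both genes KA lay below the control in each line, since the control held 13.7 CPM and 33.7 CPM of TNFSF10 and 115 CPM and 29.3 CPM of OAS1. The remaining named genes higher in both lines were low in at least 1 line. DEPP1, a target of FOXO factors, SERPINB2, an inhibitor of plasminogen activators, KISS1, the precursor of kisspeptins, and MAB21L4 had smaller-line changes of 1.10, 1.02, 0.88 and 0.85. MAB21L4 held 3 reads in HT-1376 KA and 10 in HT-1376 KC, so that its change there rests on few reads.

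IGFBP5, a binding protein of insulin-like growth factors and a reported AP-2 target, was low throughout, at 1.89 CPM and 11.8 CPM in KA and KC of RT-112 and at 1.76 CPM and 4.33 CPM in HT-1376. Its mean change was 1.73 ± 0.51 (SE), and no p is given because it was tested only through RT-112 KC, the library where it is high. The control was lower than both factors, at 0.72 CPM and 0.26 CPM.

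The named genes lower in KC differed less, with smaller-line changes from 0.74 to 1.11 in size against 0.84 to 3.01 for those that were higher. ATP5F1E, the ε subunit of ATP synthase, was the most abundant, at 1348 CPM in RT-112 KA and 809 CPM in RT-112 KC, and at 848 CPM and 287 CPM in HT-1376. The control held 985 CPM and 533 CPM, between the factors in both lines. PCLAF, which binds the replication clamp PCNA, was at 177 CPM and 104 CPM in RT-112 and at 121 CPM and 44.8 CPM in HT-1376, a mean change of -1.09 ± 0.32 (SE) with an unadjusted p of 0.0075. TAF13, a subunit of the general factor TFIID, was at 29.2 CPM and 16.8 CPM in RT-112 and at 168 CPM and 99.8 CPM in HT-1376.

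MRPL50, of the large mitochondrial ribosomal subunit, was at 6.05 CPM and 3.05 CPM in RT-112 and at 12.8 CPM and 7.30 CPM in HT-1376. TMEM126A, an inner membrane protein needed for respiratory complex I, was at 12.4 CPM and 6.84 CPM in RT-112 and at 31.6 CPM and 16.2 CPM in HT-1376. MIX23 was at 14.7 CPM in KA of both lines and at 8.18 CPM and 8.44 CPM in KC. In RT-112 the KC values of these genes equalled the control within 1 CPM, and KA was the library that stood off. RPS7P1 and RPS7P11, processed pseudogenes of the ribosomal gene RPS7, were lower in KC as well, and RPS7 itself was at 1006 CPM and 615 CPM in RT-112 and at 1465 CPM and 712 CPM in HT-1376. Reads of the copies and their parent may be exchanged, so these 3 count as 1 uncertain observation.

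Of 17 tested genes of the cornified envelope, 2 were higher and 6 lower in KC in both lines, against 22.2% and 20.7% of all tested genes. SPRR1B, a precursor of the cornified envelope, was at 10.1 CPM and 4.06 CPM in RT-112 and at 20.8 CPM and 11.3 CPM in HT-1376. CRCT1, which lies in the same epidermal gene cluster, was at 574 CPM in HT-1376 KA and 221 CPM in HT-1376 KC, but held only 12 and 1 reads in RT-112. ERVMER34-1, an envelope gene of an endogenous retrovirus, held 11 and 0 reads in RT-112 and was at 23.6 CPM and 9.64 CPM in HT-1376. The RT-112 changes of CRCT1, ERVMER34-1 and MLLT11, which held 14 and 4 reads, thus rest on few reads. RIBC2 was at 1.58 CPM and 0.64 CPM in RT-112 and at 16.6 CPM and 7.94 CPM in HT-1376.

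The distances of KA and KC from the control were compared for the named genes. Among the 14 lower in KC, KA lay farther from the control than KC did for 13 in RT-112 and 10 in HT-1376. Among the 14 higher in KC, KA lay farther for 4 in RT-112 and 3 in HT-1376, and KC for the rest. Both distances use the same control library. The genes were chosen on their KA and KC values, and the same count over all tested genes was not made. These counts thus have no background to be read against. All 28 kept their direction in both lines after TMM scaling. The next genes outside the rule were GLIPR2 at 0.80 and DGUOK-AS1 at 0.73 in size, close to the last ones inside it. In the first listed promoters, the AP-2 palindrome stood in 5 of the 12 higher genes that had one (IFI27, MUC1, MT2A, BLVRA and MAB21L4) and in 0 of 11 lower ones, against 33.1% of tested genes.

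**Figure D3:**
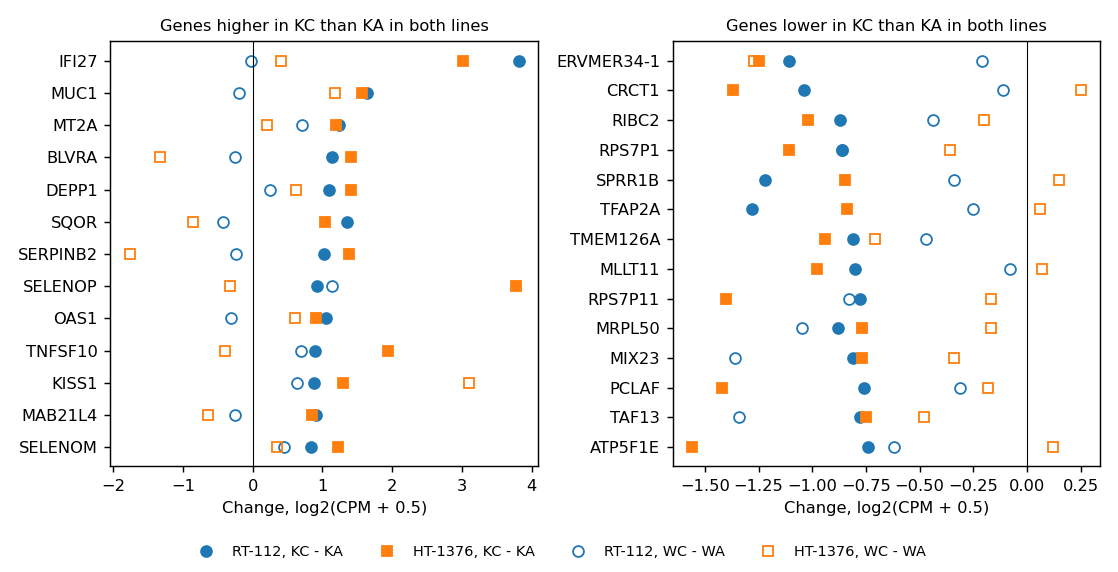
Change in log2(CPM + 0.5) (x axis) of 13 of the 14 genes higher (left) and the 14 lower (right) in KC than KA, in RT-112 (circles) and HT-1376 (squares), with KC - KA filled and WC - WA open, 1 pair of libraries a point. The filled points are on 1 side by the choice of genes, while the open points of BLVRA, SQOR, SERPINB2 and MAB21L4 lie below 0 in both lines.

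Among the lists with 5 or more tested genes, the interferon-stimulated genes had the largest share of members higher in KC in both lines, 76.0%. Interferon binding to its receptor activates a complex with STAT2 and IRF9 that switches on genes against viruses. Of the 37 listed genes, 25 were tested, 19 were higher in KC in both lines and 0 were lower in both, against a background of 22.2% of all tested genes higher and 20.7% lower in both lines. Of the 25, 5 (IFI44, IFIT3, IFIT5, OASL and RIGI) reached 5 CPM only in KC, so that they were tested because they are high there, and 4 of them are among the 19. A filter that uses neither KA nor KC, chosen after seeing the data, kept the 17 members with a mean of 5 CPM or more over the other 8 libraries of the lines. Of these, 14 were higher and 0 lower in KC in both lines, against 21.1% and 21.7% of the 9308 genes it kept, and 5 were higher at an unadjusted p under 0.05, against 0.398%. None of the list passed the adjusted p. Its median lay above that of all genes in either line, at 0.49 against 0.10 in RT-112 and at 0.77 against -0.20 in HT-1376. After TMM scaling the medians were 0.37 and 0.98, and 21 of 25 were higher in both lines. The list was fixed with earlier results of these libraries known.

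IRF9, which binds DNA in that complex, was at 5.10 CPM in RT-112 KA and 23.8 CPM in RT-112 KC, and at 31.7 CPM and 54.5 CPM in HT-1376. Its mean change was 1.45 ± 0.39 (SE), with an unadjusted p of 0.0049. It was named after its values were seen, which favours a small p. STAT2 was at 11.5 CPM and 29.3 CPM in RT-112 and at 40.9 CPM and 56.5 CPM in HT-1376.

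The effector genes differed in which line stood off. IFI6, an inhibitor of apoptosis and of viral replication, was at 77.2 CPM in RT-112 KA and 626 CPM in RT-112 KC, but at 315 CPM and 367 CPM in HT-1376. ISG15, the ubiquitin-like modifier, was at 257 CPM and 267 CPM in RT-112 and at 38.0 CPM and 127 CPM in HT-1376. IFIT3, which binds viral RNA with its relatives, was at 0.21 CPM and 0.75 CPM in RT-112 and at 0.34 CPM and 6.31 CPM in HT-1376. IFIT5 was at 0.79 CPM and 2.35 CPM in RT-112 and at 2.55 CPM and 8.58 CPM in HT-1376. IFIT3 and IFIT5 reached 5 CPM in HT-1376 KC alone, so no p is given for them. MX1, a GTPase against influenza viruses, was at 2.53 CPM and 3.69 CPM in RT-112 and at 10.1 CPM and 33.2 CPM in HT-1376. STAT2, IRF9, IFI6, ISG15 and MX1 were named after their values were seen. IFITM1, IFITM2 and IFITM3 are close copies of each other, and their values are uncertain.

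The motif printed above in IFI27 and IFI6 stood in the first listed promoter of 14 of the 20 tested interferon-stimulated genes that had one, against 2.67% of the tested genes.

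Between WC and WA, 4 of the 25 genes were higher and 5 lower in both lines, against 16.9% and 40.3% of all tested genes, and the medians were -0.04 in RT-112 and 0.39 in HT-1376, where all genes had -0.07 and -0.17. In HT-1376 the list thus stood above all genes between WC and WA too, and the difference of the list between the contrasts was not tested. IFI27 was at 0.56 CPM and 0.54 CPM in RT-112 WA and WC, and HT-1376 WC was above HT-1376 WA, at 152 CPM, by 0.40 on the log2 scale. For single genes the test of the difference, KC - KA minus WC - WA, gave an unadjusted p of 0.14 for IFI27 and 0.032 for IRF9, with no gene past the adjusted p (0.0% of those tested, 1.28% at an unadjusted p under 0.05). IFI27 was chosen on its KC - KA change and IRF9 was named after its values were seen, which favours a small p in this test.

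**Figure D4:**
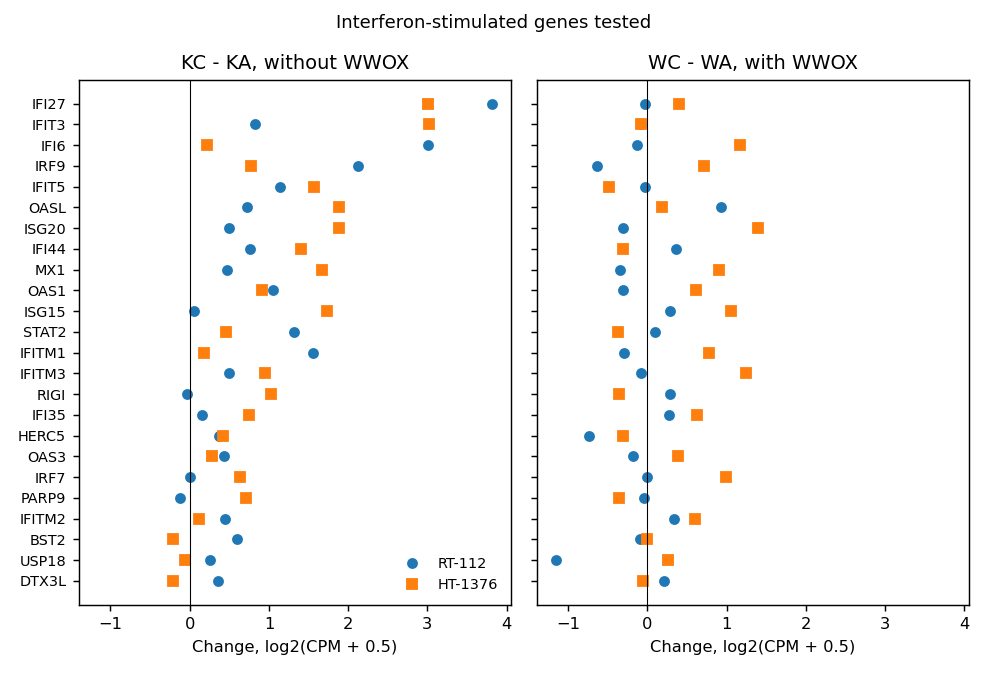
Change in log2(CPM + 0.5) (x axis) of 24 of the 25 tested interferon-stimulated genes, ordered by mean change, for KC - KA (left) and WC - WA (right) in RT-112 (circles) and HT-1376 (squares), 1 pair of libraries a point. On the left 18 of those shown lie above 0 in both lines and 0 below 0 in both, and on the right 4 lie above and 5 below.

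MHC class I and antigen processing genes, many of them also induced by interferon, were higher in both lines for 11 of 16 and lower for 1, against 22.2% and 20.7% of all tested genes. Their medians were 0.17 in RT-112 and 0.75 in HT-1376. HLA-B was at 28.8 CPM in RT-112 KA and 48.9 CPM in RT-112 KC, and at 816 CPM and 1711 CPM in HT-1376, with the caution that HLA genes are near-identical. ERAP1, which trims peptides for MHC class I, was at 1.16 CPM and 2.51 CPM in RT-112 and at 25.9 CPM and 44.3 CPM in HT-1376. PSMB9, an immunoproteasome subunit named after its value was seen, was the 1 member at an unadjusted p under 0.05 (0.022), at 27.1 CPM and 36.2 CPM in RT-112 and at 134 CPM and 322 CPM in HT-1376. B2M, the light chain, also named after its values were seen, was at 1464 CPM and 1644 CPM in RT-112 but at 3341 CPM and 2230 CPM in HT-1376.

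Of the chemokines and cytokines, 9 of 17 were higher in both lines and 0 lower, against 22.2% and 20.7% of all tested genes. The medians were 0.05 in RT-112 and 0.93 in HT-1376, so that the size came from HT-1376, and after TMM scaling 7 of 17 were higher and the RT-112 median was -0.07. Of the 17, 3 (CCL5, IL1A and IL23A) reached 5 CPM only in KC, and 2 of these are among the 9. CCL5, a chemokine of T cells and monocytes, was at 0.42 CPM and 1.28 CPM in RT-112 and at 2.89 CPM and 10.3 CPM in HT-1376. Its mean change was 1.31 ± 0.33 (SE), with no p given because HT-1376 KC alone brought it into the test. Between WC and WA, which the filter did not use, it changed by 1.64 with an unadjusted p of 0.00072.

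Nuclear genes of oxidative phosphorylation leaned the other way. Of 79 tested, 42 were lower in KC in both lines, or 53.2% against 20.7% of all tested genes, and 10 were higher. The medians were -0.11 in RT-112 and -0.14 in HT-1376, and after TMM scaling -0.25 and 0.08, so that the median of HT-1376 changed sign and 32 of 79 were lower in both lines, against 24.6% of all tested genes. ATP5PO, a stalk subunit of ATP synthase, was at 147 CPM and 97.8 CPM in RT-112 and at 133 CPM and 71.3 CPM in HT-1376, with a mean change of -0.74 ± 0.20 (SE) and an unadjusted p of 0.0042. ATP5F1A, the α subunit of the same enzyme, went the other way, at 12.7 CPM and 22.7 CPM in RT-112 and at 60.2 CPM and 91.3 CPM in HT-1376. Cytosolic ribosomal protein genes were lower in both lines for 33 of 80 and higher for 19, against 20.7% and 22.2% of all tested genes. Their medians were -0.03 in RT-112 and -0.12 in HT-1376. After TMM scaling 27 of 80 were lower in both lines, against 24.6%, and the medians were -0.16 and 0.09.

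**Figure D5:**
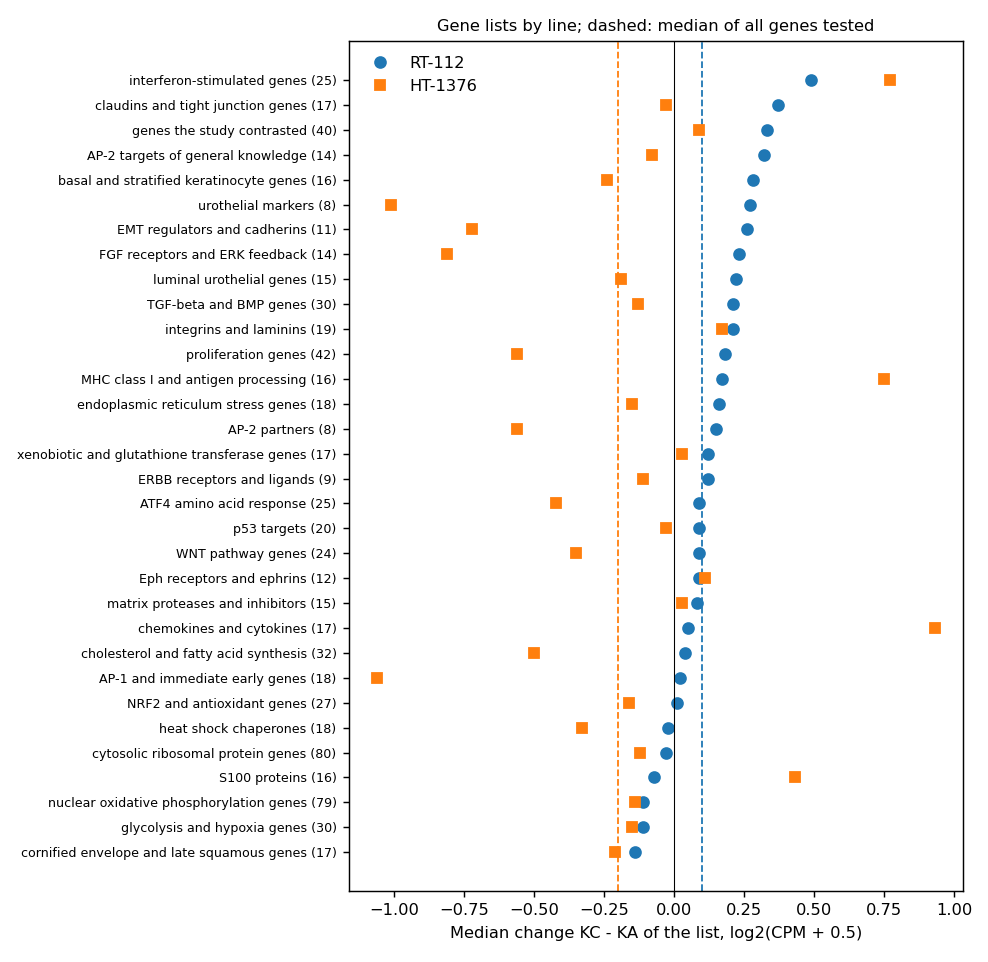
Median change KC - KA in log2(CPM + 0.5) (x axis) of each gene list with 5 or more tested genes (number in brackets), in RT-112 (circles) and HT-1376 (squares), with dashed lines at the medians of all genes tested (0.10 and -0.20). The interferon-stimulated genes, at 0.49 and 0.77, have the highest median in RT-112, and the urothelial markers and the AP-1 genes lie near -1 in HT-1376 only.

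Of the 8 urothelial markers tested, 7 were higher in KC in RT-112, against 65.4% of all genes, and 0 in HT-1376, where 7 were lower and UPK1A was listed at 0, with medians of 0.27 and -1.01. UPK1B, a tetraspanin of the urothelial plaque, was at 404 CPM in RT-112 KA and 829 CPM in RT-112 KC, and at 946 CPM and 390 CPM in HT-1376. GATA3, a factor of luminal identity, was at 189 CPM and 228 CPM in RT-112 and at 243 CPM and 134 CPM in HT-1376. PPARG, its partner in luminal cells, was at 15.0 CPM and 15.8 CPM in RT-112 and at 11.7 CPM and 3.69 CPM in HT-1376. The 15 tested genes of the luminal list were higher in both lines for 5 and lower for 2, against 22.2% and 20.7%, with medians of 0.22 and -0.19, the latter close to -0.20 over all genes. KRT7, a keratin of simple epithelia and the most abundant of the list, was at 11614 CPM and 11649 CPM in RT-112 and at 7331 CPM and 8040 CPM in HT-1376. KRT19, another such keratin, was at 6772 CPM and 6812 CPM in RT-112 but at 94.9 CPM and 12.6 CPM in HT-1376. PPARG was named after its values were seen.

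Of 14 tested FGF receptor and ERK feedback genes, 12 were higher in KC in RT-112 and 2 in HT-1376, against 65.4% and 34.5% of all genes, with medians of 0.23 and -0.81 (0.11 and -0.59 after TMM scaling). Of 42 proliferation genes, 28 were higher in RT-112, close to the share over all genes, and 8 in HT-1376. Their medians were 0.18 and -0.56, and 0.04 and -0.35 after TMM scaling. CDC20, an activator of the anaphase-promoting complex, was at 307 CPM and 267 CPM in RT-112 and at 930 CPM and 512 CPM in HT-1376. Of 18 AP-1 and immediate early genes, 0 were higher and 7 lower in both lines, against 22.2% and 20.7%, with medians of 0.02 and -1.06 (-0.10 and -0.85 after TMM scaling). FOS, an AP-1 subunit induced within minutes by serum, was at 22.1 CPM and 17.3 CPM in RT-112 but at 70.9 CPM and 3.76 CPM in HT-1376, where KK held 2.17 CPM, so that HT-1376 KA was the library that stood off. FOS was named after its values were seen. Between the lines, no gene differed in the AP-2γ against AP-2α contrast over both backgrounds at an adjusted p of 0.05 (0.0% of those tested, 6.87% at an unadjusted p under 0.05). Within HT-1376 over both backgrounds 1 gene, 0.00895% of those tested, passed it: CHI3L2, a chitinase-like protein, at 0.74 CPM in KA, 7.52 CPM in KC, 1.34 CPM in WA and 17.6 CPM in WC, and listed at 0 in all 6 RT-112 libraries. Of the KA and KC libraries it reached 5 CPM in HT-1376 KC alone, so that it was tested only because it is high there. RT-112 alone gave 0.

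Known AP-2 targets were divided. Of 14 tested, 5 were higher and 2 lower in both lines, against 22.2% and 20.7% of all tested genes, with medians of 0.32 and -0.08, and 1 of the 5 was IGFBP5. ERBB2, a growth factor receptor whose promoter AP-2 binds in breast cancer cells, was at 178 CPM and 223 CPM in RT-112 and at 90.7 CPM and 99.9 CPM in HT-1376. CDH1, which encodes E-cadherin, was at 110 CPM and 137 CPM in RT-112 and at 168 CPM and 74.2 CPM in HT-1376. KRT14, the basal keratin, was at 2.63 CPM and 1.98 CPM in RT-112 and at 535 CPM and 372 CPM in HT-1376. Of 8 tested AP-2 partners, 1 was higher and 2 lower in both lines, near the same background, and the 1 was CITED4, a coactivator of AP-2, at 22.7 CPM and 25.4 CPM in RT-112 and at 212 CPM and 359 CPM in HT-1376.

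Adhesion genes were counted against the same backgrounds of 22.2% higher and 20.7% lower in both lines. Of 17 tested claudin and tight junction genes, 8 were higher in both lines and 0 lower, of 19 integrin and laminin genes 10 were higher and 1 lower, and of 12 Eph receptors and ephrins 6 were higher and 0 lower. CXADR, the coxsackie and adenovirus receptor of the tight junction, was at 19.5 CPM and 31.3 CPM in RT-112 and at 1.70 CPM and 4.11 CPM in HT-1376. EFNA1, the ligand of EphA2, was at 22.1 CPM and 28.9 CPM in RT-112 and at 70.0 CPM and 124 CPM in HT-1376, with a mean change of 0.60 ± 0.23 (SE) and an unadjusted p of 0.028. Of the 11 tested EMT regulators and cadherins, 1 was higher and 2 lower in both lines.

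The genes that the study contrasted between its variants were followed too. Of 56, 40 were tested, 16 were higher and 2 lower in KC in both lines, against 22.2% and 20.7% of all tested genes, and 1, EFNA1, was at an unadjusted p under 0.05. Of the 40, 3 (PRKCA, IL1A and MAP3K5) reached 5 CPM only in KC, and 2 of these are among the 16. The filter that uses neither KA nor KC kept 34. Of those, 11 were higher and 2 lower in both lines, against 21.1% and 21.7% of all genes it kept. The study chose the listed genes on these libraries, so their direction is not independent evidence. L1CAM, a neural adhesion molecule, was at 12.7 CPM and 30.7 CPM in RT-112 but at 224 CPM and 105 CPM in HT-1376. TGFB1 was at 80.9 CPM and 68.5 CPM in RT-112 and at 15.7 CPM and 28.0 CPM in HT-1376. IL1A was at 0.37 CPM and 0.32 CPM in RT-112 and at 1.31 CPM and 9.57 CPM in HT-1376. SOS1, PIK3CB and MAP3K7, which carry receptor signals to RAS, AKT and p38, had changes between -0.09 and 0.36 in both lines.

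The named genes were last read between WC and WA, libraries that the choice of genes did not use. No gene passed an adjusted p of 0.05 there (0.0% of those tested, 2.59% at an unadjusted p under 0.05). Of the 14 genes higher in KC than KA, 4 were higher in WC than WA in both lines, against 16.9% of all tested genes. Another 5 were lower in both, against 40.3%. The medians of the 14 were -0.11 in RT-112 and -0.05 in HT-1376, where all genes had -0.07 and -0.17. Of the 14 lower genes, 9 were lower in WC in both lines and 0 higher in both, against 40.3% of all tested genes lower in both, with medians of -0.46 and -0.18 where all genes had -0.07 and -0.17. TAF13 was at 16.2 CPM in RT-112 WA and 6.09 CPM in RT-112 WC, and at 160 CPM and 114 CPM in HT-1376. Of the 79 tested oxidative phosphorylation genes, 37 were lower and 15 higher in WC than WA in both lines, against 40.3% and 16.9% of all tested genes. ATP5PO, of that list and not of the 14, changed by -0.80 between WA and WC, with an unadjusted p of 0.0025. It was 1 of 3 list members lower there at an unadjusted p under 0.05. Across all genes the changes of KC - KA and WC - WA had a Pearson r of 0.03 within RT-112 and 0.11 within HT-1376, given as a description.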

How the data were processed

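Gene expression was measured by CAGE-seq in 18 libraries, 1 for each of 6 variants in 3 bladder cancer cell lines. Groups were taken from the sample titles. Per the submitters' notes and the study's methods, 75 nt single-end tags were mapped to hg38 with BWA and HISAT2 2.0.5 and summed per gene, and the authors deposited CPM rounded to 2 decimals. Between 99.97% and 99.99% of values in a library were whole multiples of 1 read within the rounding, and these recovered reads served the count tests. Gene symbols came from GENCODE 44, which held 16553 of 16575 identifiers. Table columns of no sample here numbered 0.

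Genes with at least 5 CPM in 1 or more of the 4 KA and KC libraries were tested on log2(CPM + 0.5) with limma 3.58.1 in R 4.3.3, over the 12 libraries of RT-112 and HT-1376 with the line as a block and Benjamini-Hochberg adjustment over all genes. A change on this scale understates that of low genes. Samples with the same line pair across variants, since the line is the replicate number (lowest correlation of same-line deviations 0.807, fixed by construction with 2 lines). Each variant has 1 library a line, so p-values rest on how far the variant changes disagree between the lines, which cannot be told from library noise. They do not measure the spread between cultures. No 2 of the compared libraries agreed within sampling noise (chi-square per degree of freedom 19.4 or more). Alternatives used edgeR 4.0.16, DESeq2 1.42.0, limma-voom, TMM and quantile scaling, other pseudocounts (0.05 and 2 CPM), filters and libraries. The fits were tested on simulated data.

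The text names the AP-2 genes, up to 14 genes in each direction with the largest smaller-line change that had the same sign in both lines and 5 CPM or more in at least 2 of the 4 libraries, up to 4 genes of each gene list (the 2 most abundant where no member passed 0.5 in both lines), and genes the study contrasted. Others are said to be named after their values were seen. The comparison, lists and genes were chosen with earlier results of these data known. Floors and read counts cover counting error only. Values of 2 genes are not reported here, though the counts hold them.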

Additional observations from a re-analysis of the deposited data

Results flagged for a closer look

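In 4 of the named genes, KC - KA and WC - WA went in opposite directions in both lines, which is what drew attention to them. All 4 were of the 14 higher in KC, and 40.3% of all tested genes were lower in WC than WA in both lines. In RT-112 the WC - WA change was only -0.25 for BLVRA and for MAB21L4. MAB21L4 also held 3 reads in HT-1376 KA, too few to read a change there. The difference between the contrasts, on the log2 scale, was 2.07 for BLVRA (mean 1.28 against -0.79), 1.84 for SQOR (1.20 against -0.64), 2.20 for SERPINB2 (1.20 against -1.0) and 1.33 for MAB21L4 (0.88 against -0.45). The unadjusted p of the limma interaction test was 0.0094 for BLVRA, 0.0093 for SQOR and 0.15 for MAB21L4. The genes were picked on these same differences, which favours a small p. No p is given for SERPINB2, which among the KA and KC libraries reached 5 CPM only in KC. The adjusted p of that test was 1.0 for each gene given a p, and none of the differences passed the correction. In HT-1376, BLVRA was at 47.8 CPM in WA and 18.7 CPM in WC and SQOR at 73.2 CPM and 40.3 CPM. Groups of 2 libraries were too small for a test of single outlying samples.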

How the results depend on the processing

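No gene was called in KC/KA under the other pseudocounts, filters and scalings, without the replicate block, with 18 libraries, or by limma-voom, edgeR or DESeq2. The 4 libraries alone with the replicate block called 12 (20 for WC/WA), and leaving out 1 KA or KC library called 0 to 1, the 1 being FOS, lower, without RT-112 KA. The fit without the replicate block had 7 genes at an unadjusted p under 0.05, against 118. For WC/WA, DESeq2 called 3 (CCL5, GTF2H2 and UBD). The interaction called 0 in each fit run, and the contrast between lines 0 under the first 6 alternatives. Without 1 library TFAP2C ranged from 0.54 to 2.18 and TFAP2A from -1.37 to -0.75, and with CAL-29 as labelled TFAP2A was at -0.49. Without RT-112 KA, TFAP2C was at 0.54, and without RT-112 KC at 0.93. Counts beyond 1 in both lines depended on the settings. The 11 higher became 29 at a pseudocount of 0.05 CPM, 4 at 2 CPM, 7 with TMM and 7 with quantile scaling, 80 beyond 1.5-fold and 3 in 3 lines. The 3 lower became 16, 1, 3, 3, 42 and 0. The cause of these moves was not tested, apart from the wider or stricter thresholds themselves. Of 41 genes followed singly, 640 of 652 alternative values kept direction and side, 5 passed the adjusted p in the 4-library fit (IFI27, MUC1, MT2A, SELENOP, IFI6) and 7 reversed. Those were KISS1 (-0.01 without RT-112 KA and -0.25 without HT-1376 KC, in a leave-one-out range of -0.25 to 2.42), SPRR1B (0.23 and 0.01 likewise, range -2.30 to 0.23), and with CAL-29 as labelled MAB21L4 (-0.43), ERVMER34-1 (0.52) and CRCT1 (1.34). The list counts, 19 of 25 and 42 of 79, were added after seeing the data. Under 7 alternatives they ranged by share from 26 of 36 to 21 of 25 and from 32 of 79 to 42 of 79. A gene at 3 reads or fewer cannot be read as a change at this depth.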

Other observations

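The relatives of MT2A were read after its value was seen. MT1X was at 61.3 CPM in RT-112 KA and 82.9 CPM in RT-112 KC, and at 980 CPM and 2281 CPM in HT-1376, a mean change of 0.83 ± 0.39 (SE) with an unadjusted p of 0.063. MT1F was at 21.9 CPM and 27.9 CPM in RT-112, and KC lay at 1.29 times KA in HT-1376, at 145 CPM. MT1G was at 0.11 CPM or less in both RT-112 libraries and at 362 CPM and 420 CPM in HT-1376, where the control held 57.1 CPM. MT1M went the other way, at 6.92 CPM in HT-1376 KA and 2.77 CPM in HT-1376 KC, and was listed at 0 in RT-112. Of the KA and KC libraries MT1M reached 5 CPM in HT-1376 KA alone, so that it was tested only because it is high there. Of the 4 tested relatives, MT1X, MT1F and MT1G were thus higher in KC than KA in HT-1376 and MT1M lower, and MT1X and MT1F were higher in RT-112 also.

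S100A9, an alarmin subunit of neutrophils and stressed epithelium, was at 5599 CPM and 3736 CPM in KA and KC of RT-112 but at 1164 CPM and 13156 CPM in HT-1376. SERPINE2, a protease inhibitor of the extracellular matrix, was at 1.53 CPM and 0.75 CPM in RT-112 and at 96.7 CPM and 18 CPM in HT-1376, where the control held 18.8 CPM. EPCAM, an adhesion molecule of epithelia, was at 66.9 CPM and 60.1 CPM in RT-112 and at 78.4 CPM and 26.1 CPM in HT-1376. SCD, the stearoyl-CoA desaturase, was at 14.4 CPM and 17.1 CPM in RT-112 and at 435 CPM and 66.7 CPM in HT-1376.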
